A study of Caenorhabditis elegans with 35 samples.

Results

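The large subunit ribosomal protein genes of *C. elegans* were followed across 35 RNA-seq libraries of whole larvae, 5 libraries for each of 7 genotypes. Members are the loci whose gene names include a symbol that starts with rpl- or rla- followed by a digit, which gave 48 of the 37555 loci in the table. Of these loci, 21 carry a single gene name and 27 carry further gene names, so a count at a locus of that kind can come from a neighbouring or overlapping gene. Levels are given as scaled counts, the number of fragments at a locus after division by the size factor of its library, and a locus was tested where 5 or more libraries reached 5 scaled counts. By this filter, 43 members were tested, 3 had fragments but were too low, and 2 were listed at 0 in every library.

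Each cytosolic ribosome joins a small and a large subunit, and the large subunit forms peptide bonds and houses the tunnel through which the new protein leaves. Its proteins, most of them present as a single copy, coat the ribosomal RNA, line the tunnel, form the stalk that binds the elongation factors and make bridges to the small subunit. Their genes are transcribed at high levels in growing cells, and growth signals of the insulin and TOR pathways are known to act on ribosome production in animals.

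Larvae came from eggs laid over 6 h at 20°C and grown for 24 h at 25°C, a temperature that favours dauer arrest, and RNA of whole animals was sequenced after polyA selection from 100 ng. The groups were 5 compound mutants, a double mutant and wild type. The double mutant, labelled EA, carries mutations in *eak-7* and *akt-1*, whose products restrain the FoxO factor DAF-16. Each compound mutant carries the EA mutations and a further one: *daf-16* in EA16, *daf-12* in EA12, *dpy-21* in EA21, and in *set-4* the allele *n4600* in nEA and *dp268* in dpEA. EA16, EA12, EA21, nEA and dpEA were each set against EA, and EA was set against wild type. DAF-12 is a nuclear hormone receptor, DPY-21 acts in dosage compensation of the X chromosome, and SET-4 methylates histone H4. The *set-4* alleles are a deletion (*n4600*) and a point mutation in the catalytic domain (*dp268*), and the labels name no allele for the other genes. The mutations are present in all tissues, though the paper places the role of SET-4 in dauer arrest in the nervous system. Each library pools many larvae, and the stage label is L2/L2D, with L2D given for the EA background. Stage and genotype cannot be told apart in the comparison of EA with wild type. The study describes the replicates as biological replicate samples, while the labels do not say how their cultures were kept apart, and the p-values measure the spread between these libraries. In whole larvae, fewer cells of a type and less RNA per cell cannot be told apart.

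Libraries held between 34193 and 88068 fragments, and 8710 loci had a fragment in any library. These totals are sums over the listed loci of the deposited values and need not equal the fragments sequenced. Depth and shares are given on these sums. The 6 mutated genes had at most 3 fragments in any library, so the labels could not be checked through them. Of 5 intestinal markers, 3 had more than 3 fragments in some library, with summed levels between 81.9 and 257 scaled counts. The same held for 2 of 5 markers of body wall muscle, 2 of 5 of hypodermis, 1 of 5 of the germ line and 1 of 5 of the embryo. None of 5 neuronal markers had more than 3. A first principal component was taken over the 1031 tested loci that carry no rpl-, rla- or rps- symbol. On it, 9 libraries stood apart from the other 26. The smaller group comprised replicate 10 of EA16, 7 of EA12, 6 and 9 of EA21, 7 of nEA, 6 and 10 of EA, and 7 and 10 of wild type, and none of dpEA. Its libraries held between 34193 and 58116 fragments, against 48654 to 88068 in the larger group.

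Together the 48 loci took 28.9% ± 2.21 of the fragments listed for a library (SD, n = 35), between 24.4% and 34.9%. The 32 loci of the small subunit took 10.4% ± 1.70. Of the 20 loci with the highest mean in the table, 9 were members. The level was concentrated in few of them: the locus named rpl-41 held 22.4% of the member total and rpl-30, a protein of the large subunit, held 14.4%, and the 11 highest loci together held 89.0%. By mean scaled count, 18 members stood at 100 or more, 16 between 10 and 100, and 12 above 0 but under 10. rpl-42 and rpl-7A were the loci listed at 0.

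**Figure D1:**
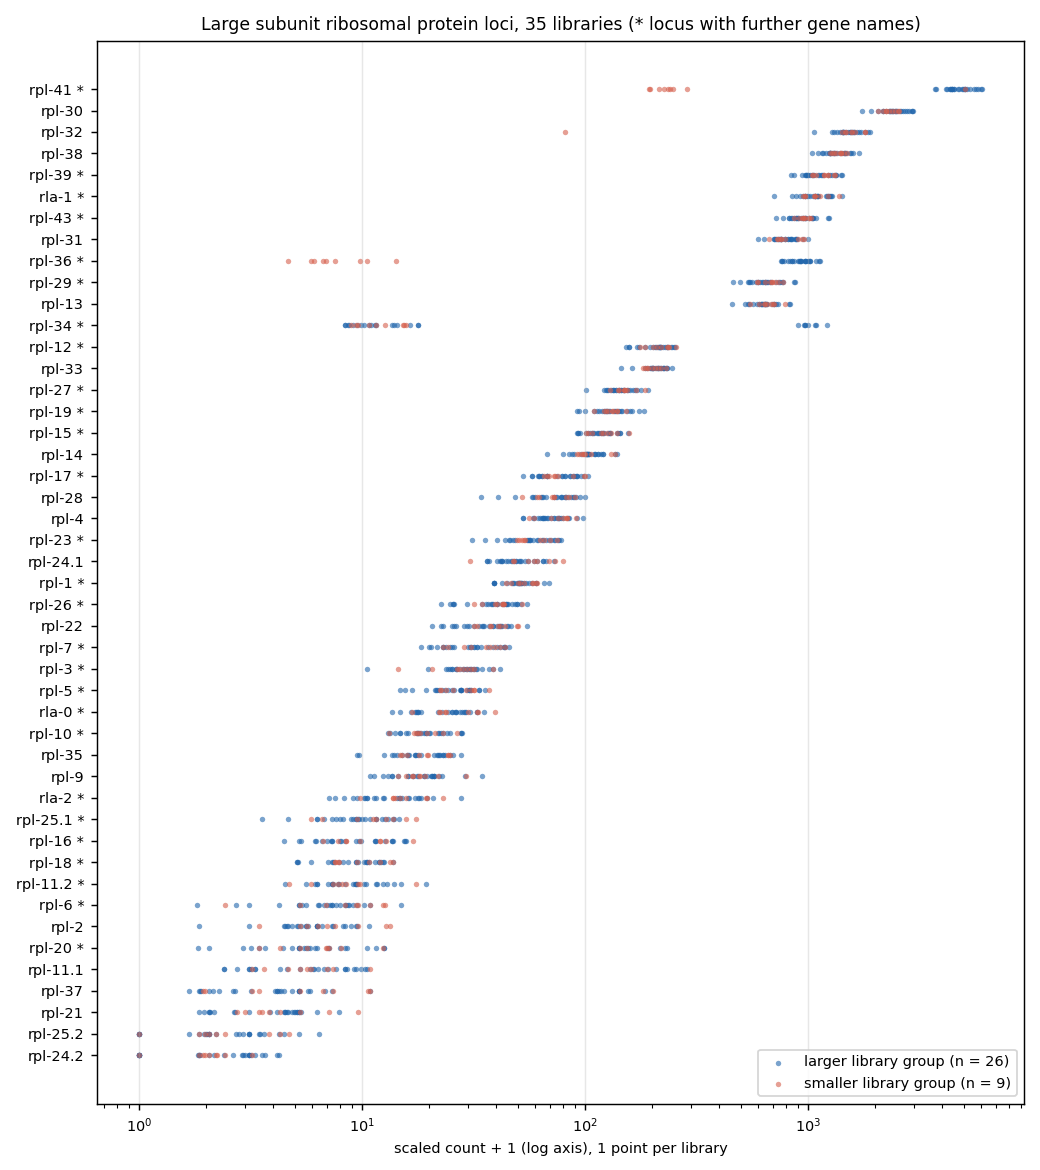
Scaled count plus 1 (log axis) of the 46 large subunit loci with any fragment, 1 point for each of 35 libraries, ordered by mean; blue points are the 26 libraries of the larger group on the first principal component, red points the 9 of the smaller group, and an asterisk marks loci with further gene names. Most loci with a high mean hold within a narrow band, and loci with a low mean spread more widely. rpl-41, rpl-36 and rpl-34 fall into a high and a low set of libraries and rpl-32 is low in 1 library.

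One symbol needs care. The locus named rpl-41 also carries C09H10.10, C09H10.13 and C09H10.19, which the WBcel235 annotation places on chromosome II between 11095044 and 11097601, and the only ribosomal protein gene it has there is rpl-36A. The annotation gives the symbols rpl-41.1 and rpl-41.2 to F54D7.6 and F54D7.7 on chromosome I, which the table lists under these sequence names and which the member rule therefore left out. F54D7.7 was the largest locus of the whole table, with a mean of 4880 scaled counts and a range of 3212 to 6261. The name rpl-41 is kept here as the table has it, with no role, length or position.

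The other 47 symbols matched the annotation, 15 of them on chromosome I, 8 on II, 9 on III, 8 on IV, 5 on V and 2 on X (rpl-11.2 and rpl-25.1). Per kilobase of transcript, the mean level of the 45 matched loci with fragments ran from 2.30 scaled counts per kb for rpl-24.2 to 6083 for rpl-30. The high loci were short: the 10 annotated loci with a mean of at least 500 had a median transcript of 372.5 nt, against 638 nt for the 16 with a mean of 10 to 100. The 17 members with transcripts up to 460 nt had a median of 1845 scaled counts per kb, against 25.7 for the 28 longer ones. Across the 45 loci, Spearman's rho between transcript length and level per kb was -0.58, a description over loci that share libraries and depth. rpl-37, at 276 nt, was an exception among the short transcripts with 13.1 scaled counts per kb. rpl-13, at 664 nt, was an exception among the longer ones with 972. The part of transcript length in these levels was not tested.

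**Figure D2:**
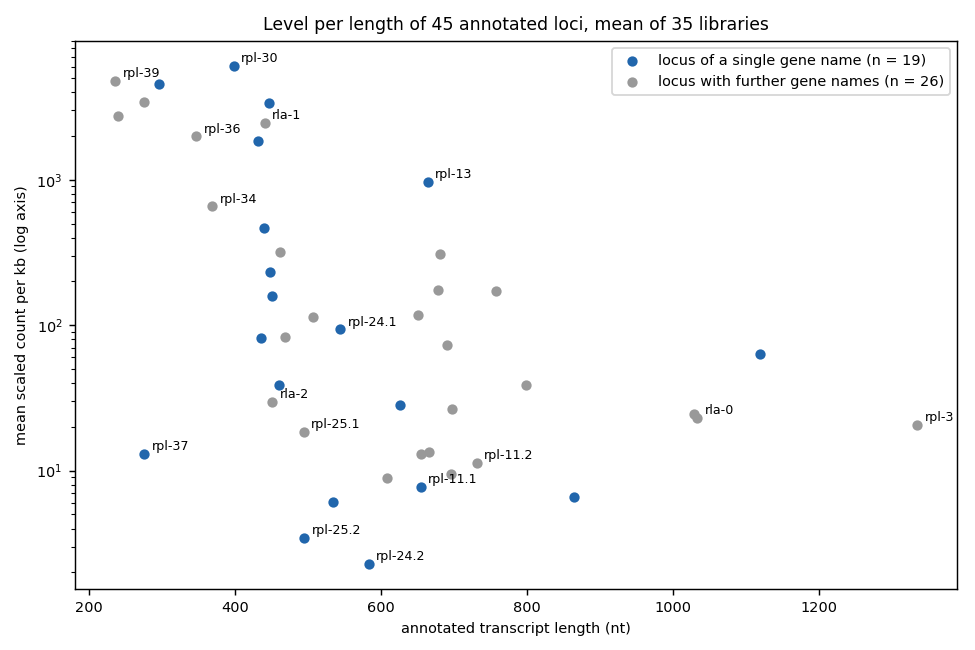
Mean scaled count per kb over 35 libraries (log axis) against annotated transcript length in nt for 45 large subunit loci, blue where the locus has a single gene name and grey where it has more. The highest levels, from 972 to 6083 per kb, sit at lengths from 236 to 664 nt, with rpl-13 the longest of them, and the longest transcript, rpl-3 at 1334 nt, stands at 20.6 per kb.

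Most of the 18 members with a mean of at least 100 varied little. Leaving aside rpl-32, rpl-34, rpl-36 and rpl-41, the 14 members with a mean of at least 100 had coefficients of variation between 10.1% and 15.7% over all 35 libraries, and their highest library stood between 1.62 and 2.07 times the lowest. Fragment counting alone would give between 2.07% and 9.98%. For the 16 members between 10 and 100 the coefficient was 14.7% to 34.3%, of which counting gives 11.6% to 28.0%, and for the 12 below 10 it was 29.4% to 75.7%, about what counting gives (33.5% to 87.8%). The smallest coefficient was that of rpl-33 (chromosome II, 7105563 to 7106316, plus strand, 4 exons), with 10.1%. rpl-33 had 246, 207, 212, 223 and 229.8 scaled counts in EA16 larvae and 195, 181, 197, 199.6 and 225 in EA12 larvae. It had 205, 184, 199, 189 and 225 in EA21, 201, 191, 211, 143 and 200.4 in nEA and 229, 200.0, 188, 233 and 216 in dpEA larvae. Its values were 213, 224, 209, 161 and 185 in EA and 232, 219, 218, 213 and 198 in wild type larvae. The 7 genotypes overlap, and the lowest library is replicate 9 of nEA.

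Of the 3 members with the highest mean, rpl-30 (chromosome I, 10436254 to 10436888, plus strand, 3 exons, 115 amino acids) was the steady one. It had 2954, 2233, 2485, 2500.4 and 2463 scaled counts in EA16, 2343, 2161, 2312, 2409 and 2666 in EA12 and 2559, 1754, 2343, 2058 and 2397 in EA21 larvae. It had 2736, 2231, 2579.5, 1910.0 and 2380.1 in nEA and 2782, 2181, 2484, 2174 and 2937 in dpEA larvae. Values were 2376, 2834, 2361, 2053 and 2241 in EA and 2928, 2300.4, 2622, 2465 and 2525 in wild type larvae. No genotype stands apart, and the means run from 2222 in EA21 to 2568 in wild type. The difference of EA from wild type was -0.12 on the log2(scaled count + 1) scale (SE 0.109, adjusted p = 0.58, limma), a change between 0.791-fold and 1.07-fold at the 95% level.

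The rpl-41 locus, the highest by mean, had 2 levels. It had 5984, 4733, 4773, 5087 and 225 scaled counts in EA16, 4379.8, 214, 4524, 4332 and 5149 in EA12 and 5080.4, 3702, 4412, 195 and 4184 in EA21 larvae. It had 4954, 192, 4906, 3761 and 4504 in nEA and 5330.2, 4346, 5017, 4434 and 5805 in dpEA larvae. Values were 248, 5646, 4423, 4152 and 240.0 in EA and 6049, 235.3, 5536, 5059 and 287 in wild type larvae. It was thus low, between 192 and 287, in 8 libraries and high, between 3702 and 6049, in 27, with no library in between. All 8 low libraries belong to the smaller group on the first principal component, and 6 of the 7 genotypes hold at least 1 of them, dpEA being the exception.

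rpl-36 (chromosome III, 7180251 to 7180647, plus strand, 104 amino acids), whose locus is shared with epg-4, F37C12.1 and F37C12.3, split in the same way and was chosen for description after its values were seen. It was low, between 3.68 and 13.2 scaled counts, in 9 libraries and high, between 754 and 1134, in 26. The 9 low libraries are the 9 of the smaller group. That group was found without the loci that carry an rpl-, rla- or rps- symbol. F54D7.7, which the annotation names rpl-41.2, stayed among the loci used. In replicate 6 of EA21, rpl-36 was low at 13.2 while rpl-41 was high at 5080, the only library in which these loci differ in class.

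rpl-34 (chromosome IV, 12268995 to 12269490, plus strand, 110 amino acids), whose locus also carries the piRNA name 21ur-13227, had the largest coefficient of variation, 179%. It had 15.4, 7.42, 8.54, 12.6 and 10.6 scaled counts in EA16, 998, 8.44, 9.24, 16.9 and 10.5 in EA12 and 14.3, 7.79, 7.37, 9.80 and 1076 in EA21 larvae. It had 965, 14.5, 7.68, 901 and 1091 in nEA and 13.4, 972, 13.0, 10.4 and 1217 in dpEA larvae. Values were 8.56, 9.74, 8.12, 955 and 7.90 in EA and 8.92, 11.7, 16.8, 10.0 and 14.8 in wild type larvae. Here the high state, between 901 and 1217, was the rarer one, with 8 libraries, and the other 27 stood between 7.37 and 16.9. High libraries numbered 3 of 5 in nEA, 2 of 5 in dpEA, 1 of 5 in each of EA12, EA21 and EA, and 0 of 5 in both EA16 and wild type. Its difference passed the threshold in none of the 6 limma comparisons. The lowest adjusted p in limma was 0.752, and 1 library decides the EA value. The log2 difference of EA from wild type was 0.87 (SE 1.63) and turned to -0.52 without replicate 9 of each genotype.

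The states of these 3 loci were nested. All 3 were low in 8 libraries, rpl-41 alone was high in 1, rpl-41 and rpl-36 were high in 18, and all 3 were high in 8. The libraries with high rpl-34 held between 50967 and 88068 fragments, against 34193 to 70848 in the others, and the part of depth in the split was not tested. rpl-32 (chromosome II, 9056497 to 9057085, minus strand, 134 amino acids) was low in 1 library: it stood at 80.6 in replicate 7 of EA12 and between 1065 and 1904 in the other 34. It had 1904, 1437, 1488, 1584 and 1794 scaled counts in EA16, 1424, 80.6, 1436, 1440.2 and 1613 in EA12 and 1627, 1065, 1302, 1420.0 and 1457 in EA21 larvae. It had 1606, 1473, 1547, 1286 and 1545 in nEA, 1723, 1394, 1561, 1508 and 1799 in dpEA, 1558, 1655, 1354, 1429 and 1473 in EA and 1852, 1571, 1687, 1589 and 1794 in wild type larvae. The other 4 libraries of EA12 lie within the EA range.

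Ranges of this size between libraries were not particular to these genes. Of the 18 members with a mean of at least 100, 4 spanned more than 10-fold between their lowest and highest library (22.2%), as did 23 of all 74 tested loci at that level (31.1%). None of the 7 small subunit loci at that level did. The count over all tested loci includes the members, and it does not tell 2 separate levels from any other wide range. The transcript lengths of rpl-36 (347 nt) and rpl-34 (369 nt) fall between those of rpl-38 (296 nt) and rpl-30 (398 nt). rpl-38 and rpl-30 showed no split, and their highest library was 1.62 and 1.68 times the lowest. The part of transcript length in the split was not tested.

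**Figure D3:**
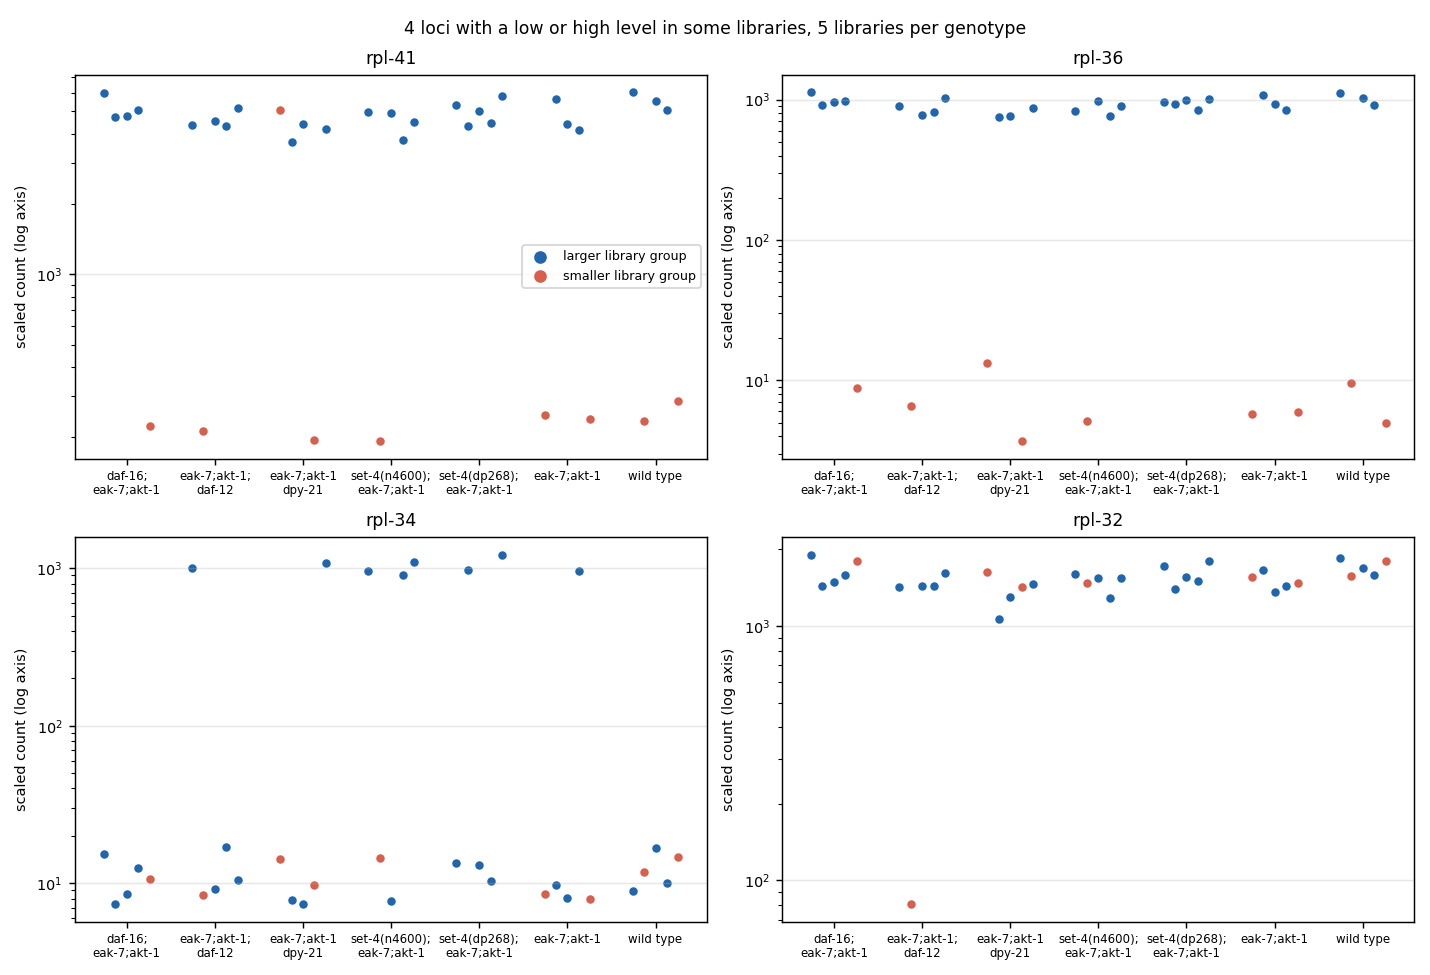
Scaled count (log axis) of rpl-41, rpl-36, rpl-34 and rpl-32 in each library, with the 5 replicates of a genotype from 6 on the left to 10 on the right; blue points belong to the larger library group and red points to the smaller one. rpl-36 is low in exactly the 9 red libraries, rpl-41 in 8 of them, rpl-34 is high in 8 blue libraries, and rpl-32 is low in 1 red library.

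No member passed the fold and adjusted p set for limma in any comparison. A call needed an adjusted p below 0.05 and a change of 1.5-fold or more, from limma on log2(scaled count + 1) over all 35 libraries with Benjamini-Hochberg adjustment over the 1101 tested loci of each comparison. In EA versus wild type, 0 of 43 members were called, against 13.0% of all tested loci. The counts were also 0 of 43 for EA16 (10.4% of all loci called), EA12 (9.99%), EA21 (12.3%), nEA (0.182%) and dpEA (0.545%), each versus EA. The count was 0 with and without the loci that carry further gene names. An unadjusted limma p below 0.05 was reached by 3 members in EA versus wild type (24.8% of all loci), 2 in EA16 (21.3%), 0 in EA12 (18.9%), 2 in EA21 (23.2%), 1 in nEA (5.09%) and 0 in dpEA (7.36%). edgeR on recovered fragments called 0 members in each, and called 12.5%, 10.3%, 9.45%, 9.99%, 0.0908% and 0.363% of all loci. At an unadjusted edgeR p below 0.05 there were 14 members in EA versus wild type (23.4% of all loci), 13 in EA16 (21.1%), 0 in EA12 (17.3%), 7 in EA21 (21.9%), 1 in nEA (3.91%) and 0 in dpEA (5.90%). DESeq2 called rpl-34 in EA versus wild type and in EA16 versus EA and no other member, against 12.53%, 11.08%, 9.173%, 10.08%, 0.2725% and 0.5450% of all loci in the 6 comparisons. At an unadjusted DESeq2 p below 0.05 there were 17 members in EA versus wild type (22.98% of all loci), 14 in EA16 (21.71%), 7 in EA12 (17.71%), 8 in EA21 (21.80%), 0 in nEA (3.724%) and 0 in dpEA (5.359%). The log2 difference was 3.88 (adjusted p = 0.0459, DESeq2) for the first call and -4.13 (adjusted p = 0.0358, DESeq2) for the other. Both calls rest on the 1 EA library in which the locus is high.

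The depth limits what could be seen for the lower members. In EA versus wild type, the 95% interval of 23 members (53.5%) lay wholly within a 1.5-fold change in either direction, against 8.81% of all tested loci. In the other comparisons the count was 23 for EA16, 22 for EA12, 21 for EA21, 24 for nEA and 23 for dpEA. For the remaining members a change of that size was not excluded. These are loci with a mean under 100 scaled counts and rpl-41, rpl-36, rpl-34 and rpl-32, whose intervals are wide. Groups that do not overlap were found for 0 of 43 members in any comparison, against 11.6% of all tested loci in EA versus wild type and 9.54%, 10.6%, 10.5%, 0.999% and 2.27% in the others, in the order above.

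**Figure D4:**
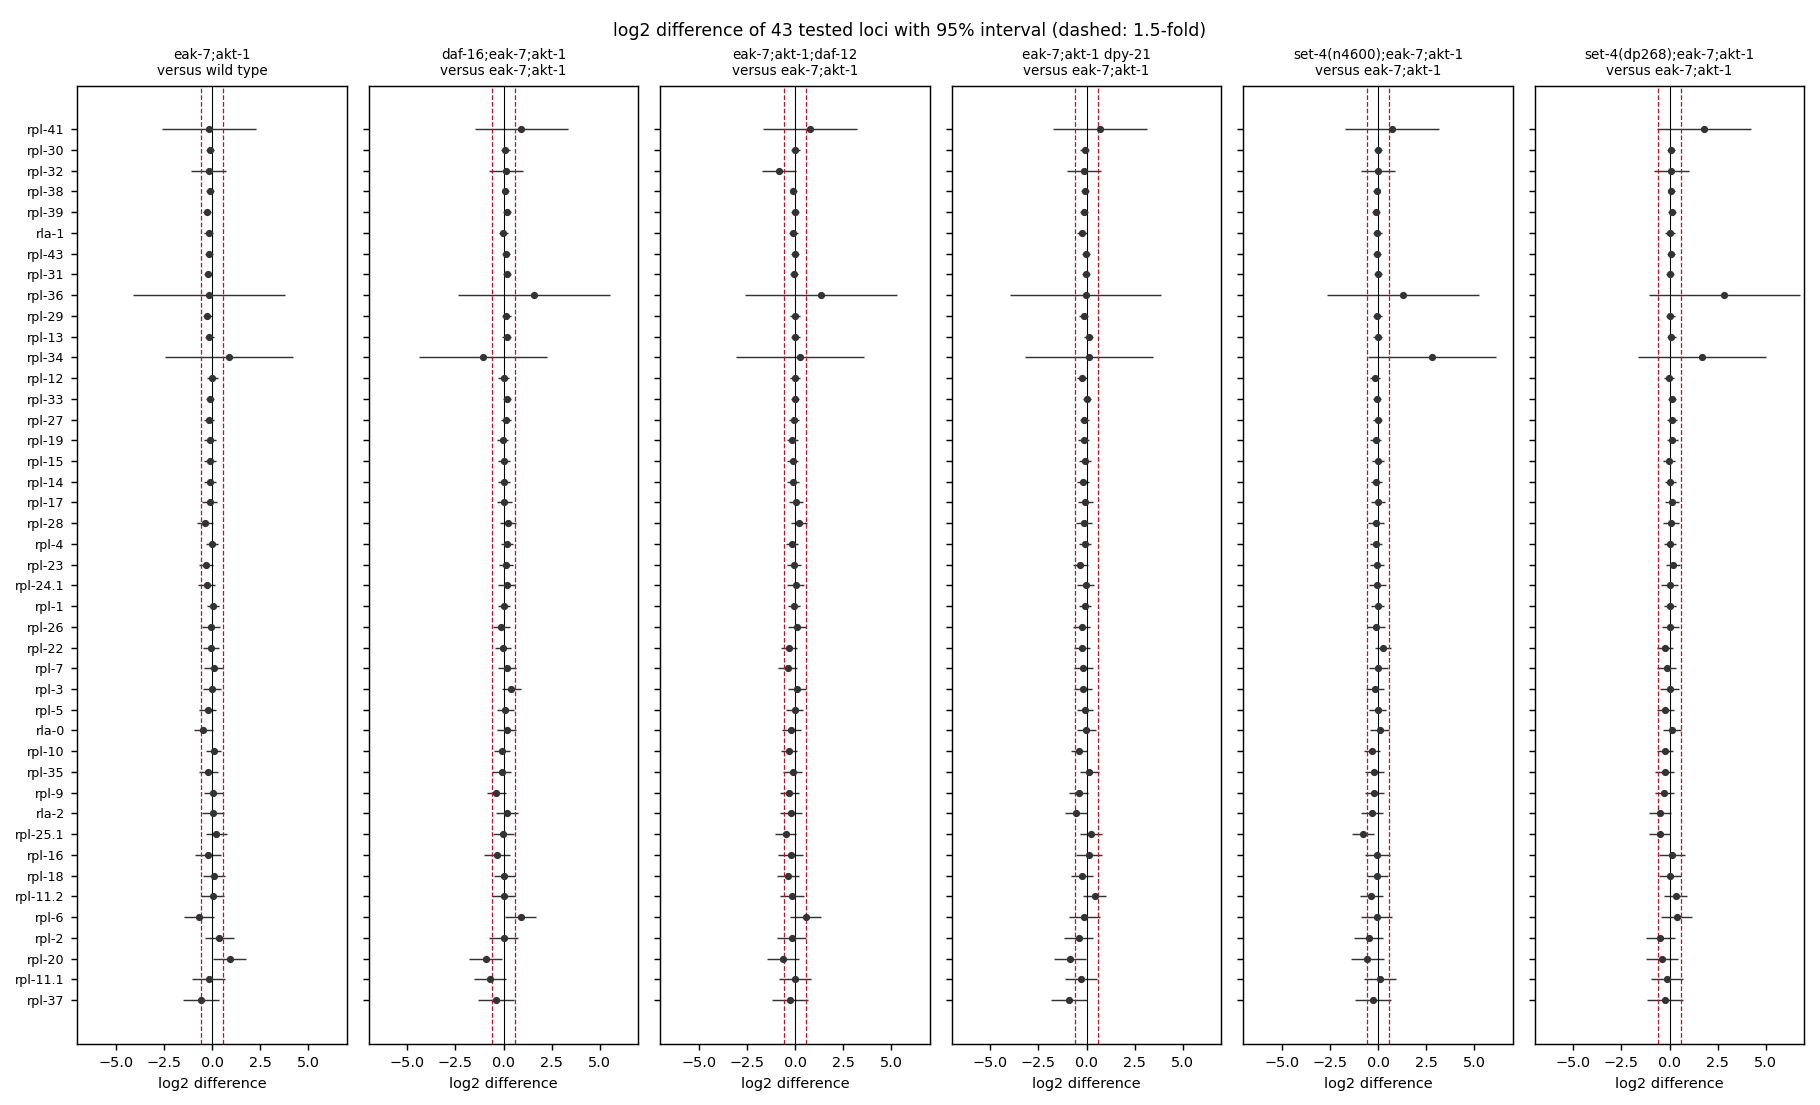
log2 difference (first-named minus second-named genotype, scale log2(scaled count + 1)) with its 95% interval for the 43 tested large subunit loci, ordered by mean level, in the 6 comparisons; dashed lines mark a 1.5-fold change. Between 21 and 24 intervals per comparison lie wholly between the dashed lines, the widest are those of rpl-41, rpl-36 and rpl-34, and none of the loci was called.

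The member with the smallest p is given for each comparison, as not passing. In EA versus wild type it was rpl-39 (chromosome V, 7775742 to 7776079, minus strand, 51 amino acids), whose product lines the exit tunnel. It had 1087, 1315, 993, 1005 and 1047 scaled counts in EA, against 1422, 1233, 1254, 1332 and 1309.8 in wild type larvae. Only replicate 7 of EA reaches the wild type values, and the groups overlap through it. The mean was 1089 ± 132 in EA and 1310 ± 74.4 in wild type (SD, n = 5 each). The log2 difference was -0.27 (SE 0.101, adjusted p = 0.0764, limma), and the 2-sided exact permutation p was 0.0317, where the smallest value this design allows is 0.00794. The permutation p was computed for rpl-39 because its limma p was the smallest, on the same values, and is not adjusted for that choice. Over the alternatives the adjusted p of rpl-39 ran from 1.52e-08 to 0.253 while the difference stayed between -0.50 and -0.24.

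rpl-20 had the smallest p in 2 comparisons, at a level of a few fragments and in a locus shared with cyc-2.1 and tctn-1. It had 4.21, 1.06, 3.42, 4.49 and 7.04 scaled counts in EA16 and 3.30, 6.06, 2.46, 6.13 and 2.68 in EA21, against 11.4, 7.58, 11.6, 4.76 and 5.93 in EA larvae. Both ranges overlap that of EA. The log2 difference was -0.93 (SE 0.415, adjusted p = 0.184, limma) for EA16 and -0.86 (SE 0.415, adjusted p = 0.209, limma) for EA21. In EA12 the smallest p was that of rpl-32, with a log2 difference of -0.85 (SE 0.436, adjusted p = 0.302, limma) that became 0.024 without replicate 7 of each genotype.

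In both *set-4* comparisons it was rpl-25.1, on the X chromosome at 4715178 to 4715796, which encodes a protein at the tunnel exit and shares its locus with glit-1. It had 5.28, 10.2, 2.56, 7.00 and 5.30 scaled counts in nEA and 3.66, 5.75, 8.66, 8.08 and 10.6 in dpEA, against 12.8, 13.0, 9.28, 6.66 and 11.9 in EA larvae. Both ranges overlap that of EA. The log2 difference was -0.79 (SE 0.272, adjusted p = 0.521, limma) for *n4600* and -0.52 (SE 0.272, adjusted p = 0.647, limma) for *dp268*.

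The members differed little as a group, and the direction for some genotypes depends on how libraries are scaled and on single replicates. The median log2 difference over the 43 members was -0.13 in EA versus wild type, where the median of all tested loci was 0.19. It was 0.08 in EA16 (all loci -0.05), -0.07 in EA12 (all loci -0.08), -0.12 in EA21 (all loci -0.20), -0.05 in nEA (all loci -0.01) and 0.04 in dpEA (all loci 0.06), each versus EA. With a replicate of each genotype left out, the members' median ran from -0.22 to -0.07 in EA versus wild type, from 0.02 to 0.18 in EA16 and from -0.12 to -0.02 in EA12. It ran from -0.21 to 0.02 in EA21, where it was above 0 without replicate 7, from -0.11 to 0.01 in nEA, where it was above 0 without replicate 9, and from 0.0011 to 0.15 in dpEA. Set against the median of all loci, the members stood 0.32 lower in EA than in wild type and 0.13 higher in EA16 than in EA. Over the 4 scalings used, the first of these offsets stayed between -0.36 and -0.32 and the second between 0.13 and 0.16. Each scaling divides all loci of a library by a single factor and so moves both medians nearly alike. The narrow ranges of the offsets over scalings therefore follow from their definition and do not test them. In EA21 the offset was between 0.08 and 0.14, while the members' own median ran from -0.12 to 0.19. In the other 3 comparisons it stayed between -0.04 and 0.03. Within the larger library group the offset was -0.31 in EA versus wild type, 0.25 in EA16, 0.05 in EA12, 0.01 in EA21, -0.02 in nEA and 0.05 in dpEA, and the members' own median in EA21 was -0.26. These comparisons share the EA libraries.

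Changes under 1.5-fold passed the test for several members once libraries were scaled to the median of ratios over the 597 tested loci with fragments in every library. At an adjusted p below 0.05 and with no limit on the fold, limma then gave 12 of 43 members lower in EA than in wild type, with log2 differences of -0.54 to -0.26, against 15.3% of all tested loci in either direction. These were rla-1, rpl-13, rpl-23, rpl-27, rpl-28, rpl-29, rpl-30, rpl-31, rpl-33, rpl-38, rpl-39 and rpl-43, and none was higher. With the same scaling 7 members were higher in EA16 than in EA, by 0.19 to 0.28 (all loci 12.1%), and 5 were higher in EA21 than in EA, by 0.19 to 0.38 (all loci 11.5%). The number was 0 in EA12 (all loci 9.54%), nEA (0.182%) and dpEA (0.454%). With the deposited scaling the number was 0 in all 6 comparisons, and it was also 0 within the larger library group and with equal library totals. Without replicate 7 of each genotype, 2 members (rpl-31 and rpl-39) were lower in EA than in wild type, against 11.6% of all loci. With edgeR's own scaling 7 members were lower in EA than in wild type (all loci 14.2%), and 5 were higher in EA16 (11.4%) and 3 in EA21 (11.8%), each versus EA. With DESeq2 13 members passed in EA versus wild type, 12 of them lower (all loci 14.99%), and 8 in EA16, 7 of them higher (12.62%), with rpl-34 the exception in direction in both. It gave rpl-39, higher in EA12 (9.446%), and 5 members higher in EA21 (11.99%). rpl-31, a protein near the tunnel exit, is an example: after rescaling its log2 difference was -0.35 (SE 0.0677, adjusted p = 0.000318, limma) in EA versus wild type, 0.28 (adjusted p = 0.00406, limma) in EA16 and 0.25 (adjusted p = 0.0121, limma) in EA21, the last 2 versus EA.

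As a share of all listed fragments, the 48 loci took 29.9% ± 1.90 in EA16, 28.3% ± 2.17 in EA12 and 30.4% ± 2.72 in EA21 larvae. They took 28.0% ± 1.39 in nEA and 28.8% ± 1.10 in dpEA larvae. The share was 26.5% ± 1.83 in EA and 30.3% ± 2.06 in wild type (SD, n = 5 each). The library shares ran from 24.6% to 29.3% in EA and from 27.7% to 32.2% in wild type, so these groups overlap. Within the larger library group they were 27.6% ± 1.55 in EA (26.3% to 29.3%) and 31.8% ± 0.431 in wild type (31.4% to 32.2%, SD, n = 3 each), and did not overlap. There EA16 (29.9% to 32.3%, n = 4) and EA21 (29.4% to 30.3%, n = 3) also lay wholly above EA, while EA12, nEA and dpEA overlapped it. Groups this small can separate by chance, and the library group was itself found in these data. The order of the genotypes is not fixed. Within the larger group wild type was above EA21 (29.8%). Over all libraries and without rpl-34, rpl-36 and rpl-41, EA, at 20.8%, stood above dpEA (19.1%), nEA (19.98%) and EA12 (20.5%), with wild type highest at 23.9%. Within the larger group and without these loci, EA was lowest at 18.4%, with nEA at 18.6%, dpEA at 19.1% and wild type highest at 21.5%. Over all genotypes the share was 27.3% ± 3.20 in the 9 libraries of the smaller group and 29.4% ± 1.48 in the 26 of the larger one. Without these 3 loci it was 25.8% ± 1.44 in the smaller group and 19.6% ± 1.20 in the larger one. A share can move because fragments of other genes move, and its part in these values was not tested.

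**Figure D5:**
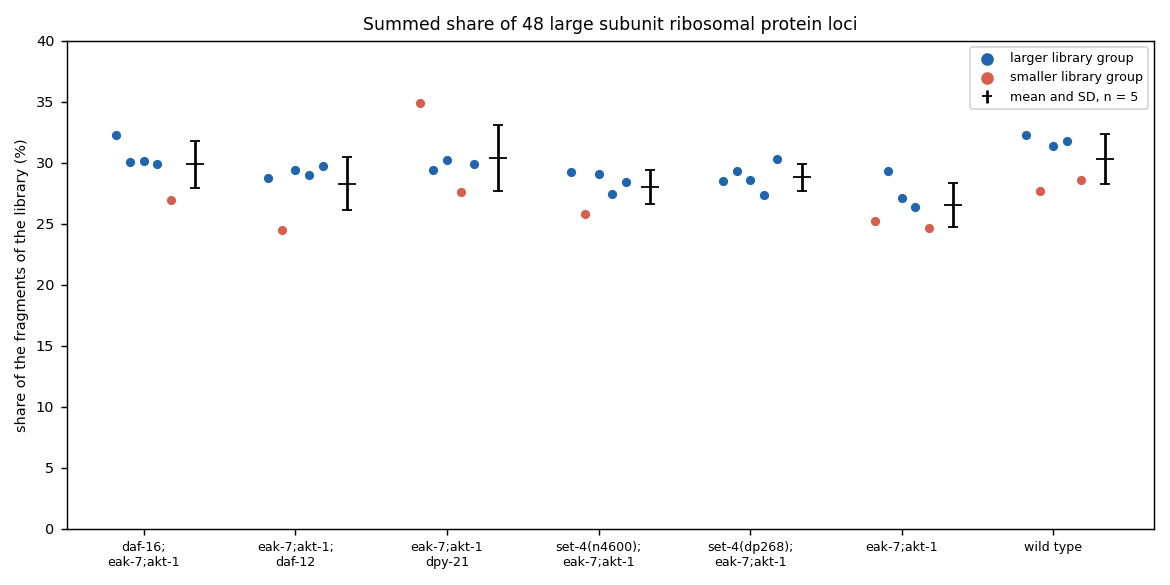
Share of the fragments listed for each library (%) at the 48 large subunit loci, by genotype, with replicates from 6 on the left to 10 on the right. Black bars are the mean and SD of 5 libraries, blue points the larger library group and red points the smaller one. The means run from 26.5% in EA to 30.4% in EA21 with overlapping libraries, and their order over all libraries changes without rpl-34, rpl-36 and rpl-41. Within the larger group EA has the lowest mean with and without these loci.

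By role, the stalk genes stood far apart in level. rla-1, which encodes an acidic P protein of the stalk, averaged 1084 ± 152 scaled counts, against 13.5 ± 4.62 for rla-2, the other acidic protein, and 23.8 ± 6.42 for rla-0, the stalk base (SD, n = 35). Per kb of transcript these means are 2457, 29.8 and 23.0. rla-1 was above both in 35 of 35 libraries. The locus of rla-0 carries 7 further gene names, that of rla-1 carries 2 and that of rla-2 carries agt-1. rla-1 ran from 700 to 1422, rla-2 from 6.12 to 26.7 and rla-0 from 12.7 to 38.5, and none of the 6 comparisons separated the groups in any of them. rpl-12, which sits at the foot of the stalk and shares its locus with tag-115, averaged 211 ± 28.1.

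Of the genes that come as suffix pairs, rpl-24.1, an intersubunit bridge protein, averaged 51.1 ± 11.8 scaled counts while rpl-24.2 averaged 1.34 ± 0.936 (SD, n = 35), with rpl-24.1 the higher in 35 of 35 libraries. Per kb the ratio was 40.9. rpl-25.1 averaged 9.13 ± 3.23 and rpl-25.2 1.71 ± 1.30, with rpl-25.1 the higher in 35 of 35 libraries. rpl-11.2 averaged 8.31 ± 3.37 and rpl-11.1 5.05 ± 2.56, and rpl-11.2 was the higher in 26 of 35. Both encode the protein that, with that of rpl-5, binds the 5S ribosomal RNA, and rpl-5 itself averaged 25.4 ± 5.49. rpl-24.2 and rpl-25.2 were under the filter and had no fragment in 7 and 5 libraries. The sequences of these pairs were not compared. Where a pair has near-identical stretches, its reads could have been split, so these ratios are uncertain.

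Among the tunnel proteins, rpl-39 and rpl-31 were abundant, at 1132 ± 151 and 795 ± 94.3 scaled counts, while rpl-4 and rpl-17, which form its narrow part, averaged 71.1 ± 11.22 and 76.6 ± 14.1 and rpl-35, at its exit, 17.8 ± 4.62. rpl-3, close to the peptidyl transferase centre, averaged 27.5 ± 6.25. rpl-10, which joins late in assembly, averaged 18.6 ± 4.22, and rpl-1, of the mobile stalk at the other side, 50.5 ± 7.44. Per kb these are 4799 for rpl-39, 1845 for rpl-31, 63.6 for rpl-4, 118 for rpl-17, 38.8 for rpl-35, 20.6 for rpl-3, 26.7 for rpl-10 and 73.2 for rpl-1. Loci whose products meet in a single structure thus differed by more than 100-fold in scaled counts per kb. Protein was not measured, and the part of transcript length in these differences was not tested.

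Of the 32 small subunit loci 27 were tested. Called among them were rps-20, lower in EA than in wild type, and rps-9, lower in EA21 than in EA, and none in the other 4 comparisons. The locus of rps-20 also carries mir-354. Their median log2 difference was -0.12 in EA versus wild type and 0.10 in EA16 versus EA. None of the tested loci of the ubiquitin fusions (1 tested), elongation factors (2), initiation factors (5), nascent chain chaperones icd-1 and icd-2 (2), ribosome assembly and polymerase I (2) or mitochondrial ribosome (15) was called in any comparison. The shares of all loci called are those given above, and lists of 1 to 5 loci are too short to be read against them. The median difference of the 15 mitochondrial ribosome loci was 0.19 in EA versus wild type and -0.20 in EA16 versus EA.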

How the data were processed

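PolyA RNA of whole larvae was sequenced in 35 libraries. The submitters' processing notes name TopHat2 2.0.9, Bowtie2 2.1.0 and Cuffdiff 2.1.1 and the build WBcel235; the authors took counts per locus from CuffDiff output. The deposited values are a signal: whole fragment counts divided by a size factor for each library (scaled counts). For every library 100% of values were whole multiples of 1 step within 0.02, so fragment counts were recovered. Groups and replicate numbers came from the labels. Members and gene lists were chosen with earlier results of these data known. Limma 3.58.1 (trend, R 4.3.3) was fitted to log2(scaled count + 1) of all 35 libraries, for the 1101 loci that reached 5 scaled counts in 5 or more libraries. A call needed a 1.5-fold change and an adjusted p below 0.05 (Benjamini-Hochberg). Alternatives were count tests of the recovered fragments (edgeR 4.0.16, DESeq2 1.42.0), other scalings, filters and pseudocounts, the 2 genotypes compared alone, a replicate block, 1 library group and each replicate left out. The fits were tested on simulated data. Values per library were given for the 3 highest members, those with the largest and the smallest coefficient of variation, and the smallest p of each comparison; suffix pairs and stalk genes were always described. Symbols, positions and lengths came from the WBcel235 annotation.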

Additional observations from a re-analysis of the deposited data

Results flagged for a closer look

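A library far from the other 4 of its genotype, by Dixon's ratio above 0.71, was found in 15 of 112 groups of 5 libraries examined. Chance gives about 1 in 20 in groups not chosen by their values, but several of the loci examined were chosen for their wide spread or small p, so the count is not to be read against that share. The locus rpl-41 stood lowest at 225 scaled counts in replicate 10 of EA16, at 214 in replicate 7 of EA12, at 195 in replicate 9 of EA21 and at 192 in replicate 7 of nEA. In all 4 of these libraries rpl-36 stood lowest as well, at 8.80 in EA16, at 6.56 in EA12, at 3.68 in EA21 and at 5.11 in nEA, and in EA21 its gap was below that ratio. rpl-34 stood highest at 998 in replicate 6 of EA12, at 1076 in replicate 10 of EA21 and at 955 in replicate 9 of EA. Replicate 7 of EA12 was lowest for rpl-32, at 80.6 scaled counts, and for the summed share of the members, at 24.4% of fragments. At low counts, rpl-11.2 was highest at 18.4 in replicate 8 of dpEA, and rla-2 was highest at 18.4 in replicate 9 of EA21 and lowest at 6.12 in replicate 9 of nEA. The causes were not tested.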

How the results depend on the processing

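The number of called members stayed at 0 in 104 of 108 alternative results. In EA versus wild type it was 1 with median-of-ratios rescaling without the rpl-, rla- and rps- loci (rpl-28) and 1 with DESeq2 (rpl-34). It was 1 with DESeq2 (rpl-34) in EA16. With a replicate left out it was between 0 and 1 in EA21, where leaving out replicate 9 called rla-2. The median member difference of EA21 was 0.15 with median-of-ratios rescaling and 0.19 with that rescaling without the rpl-, rla- and rps- loci. For rpl-32 in EA12 the difference turned to 0.0024 in the larger library group and to 0.024 without replicate 7 (range with a replicate left out -1.09 to 0.024). For rpl-34 without replicate 9 it turned to -0.52 in EA versus wild type (range with a replicate left out -0.52 to 1.33) and to 0.22 in EA16 (range -1.51 to 0.22). The cause was not tested. The summed share in loci with a single gene name was 13.1% in EA16, 12.1% in EA12, 13.7% in EA21, 12.1% in nEA, 11.5% in dpEA, 12.5% in EA and 14.2% in wild type. Without rpl-34, rpl-36 and rpl-41, a choice made after seeing the data, it was 21.8%, 20.5%, 22.4%, 19.98%, 19.1%, 20.8% and 23.9% in the same order.

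The main fits did not pair libraries by replicate number. Correlations between same-numbered libraries ran from -0.58 to 0.71 and exceeded 0.1 in at most 3 of 5 pairs of a comparison. The larger and smaller library groups fall on different replicate numbers across genotypes and were not removed from these correlations. They therefore cannot decide whether same-numbered libraries belong together. A replicate block called 0 members in all 6 comparisons. Over all loci it called 152, 121, 116, 143, 3 and 4, against 143, 115, 110, 135, 2 and 6 without it. In EA21 the count over all loci was 55 with no filter and 86 with equal library totals, against 135.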
